A study of Mus musculus with 20 samples.

Results

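The 10 genes described here, Nppa, Bmp10, Myl7, Myl4, Myh6, Tnni3, Tnnt2, Ryr2, Pln and Sln, are known from atrial and pulmonary vein cardiomyocytes of the mouse. They were taken as the rows of the count table whose Ensembl identifiers map to these symbols, and all 10 were found among its 51826 genes. Total RNA had been sequenced from 14 lung metastases of mouse sarcomas and from the 6 primary tumours that their titles match them with. A primary tumour and its metastases form a matched set: sets 1 and 2 hold 4 metastases each, sets 3 and 6 hold 2 each, and sets 4 and 5 hold 1 each. Library 4-1 is metastasis 1 matched with primary tumour 4, and 5-x is the metastasis of set 5 that carries no number. All libraries carry the same genotype label, a mixed background. No label names the driver alleles, an agent, the sex, the age, the tumour site or the animal, and p-values therefore reflect variation among these libraries only, which may be technical in part. The series title names NEAT1, sarcoma metastasis and splicing.

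Atrial cardiomyocytes secrete the hormone encoded by Nppa and build their sarcomeres with the atrial light chains Myl7 and Myl4, where ventricular cardiomyocytes use Myl2 and Myl3. In the mouse a sleeve of atrial-type cardiomyocytes runs along the pulmonary veins into the lung, so lung tissue can hold heart muscle. Not every one of these genes is particular to the heart: Myl4 and Tnnt2 are also made in embryonic skeletal muscle, Sln in some skeletal muscles, and the ventricular genes Myl2, Myl3 and Myh7 in slow skeletal muscle.

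The start-site windows of 4 of the genes are shown because Nppa, Myl7 and Ryr2 are the members that passed the test of metastases against primary tumours and Bmp10 was read almost entirely in a single metastasis. Each runs 5′ to 3′ on the gene's strand from 250 bases before to 50 bases after the RefSeq start (build GRCm38.p6). They are chr4:148000472-148000771 on the plus strand for Nppa, chr11:5898733-5899032 on the minus strand for Myl7, chr6:87428744-87429043 on the plus strand for Bmp10 and chr13:12106896-12107195 on the minus strand for Ryr2. Capitals mark matches, on either strand, to motifs of factors and elements known from cardiac promoters.
Nppa: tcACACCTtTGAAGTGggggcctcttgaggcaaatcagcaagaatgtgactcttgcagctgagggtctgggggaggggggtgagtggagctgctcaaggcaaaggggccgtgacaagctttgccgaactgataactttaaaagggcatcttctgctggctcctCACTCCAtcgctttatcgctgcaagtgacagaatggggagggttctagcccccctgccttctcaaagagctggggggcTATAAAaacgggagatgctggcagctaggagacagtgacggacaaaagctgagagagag
Myl7: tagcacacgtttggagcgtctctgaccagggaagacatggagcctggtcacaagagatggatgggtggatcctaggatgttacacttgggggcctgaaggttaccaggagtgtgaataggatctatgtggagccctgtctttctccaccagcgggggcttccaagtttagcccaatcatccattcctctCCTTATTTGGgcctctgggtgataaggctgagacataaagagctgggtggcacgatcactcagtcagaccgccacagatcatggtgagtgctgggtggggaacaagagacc
Bmp10: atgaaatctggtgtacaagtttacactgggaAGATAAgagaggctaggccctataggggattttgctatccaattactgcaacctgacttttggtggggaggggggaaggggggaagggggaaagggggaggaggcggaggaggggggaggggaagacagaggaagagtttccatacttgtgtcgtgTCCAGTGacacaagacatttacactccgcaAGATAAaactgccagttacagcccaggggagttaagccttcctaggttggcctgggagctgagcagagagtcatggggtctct
Ryr2: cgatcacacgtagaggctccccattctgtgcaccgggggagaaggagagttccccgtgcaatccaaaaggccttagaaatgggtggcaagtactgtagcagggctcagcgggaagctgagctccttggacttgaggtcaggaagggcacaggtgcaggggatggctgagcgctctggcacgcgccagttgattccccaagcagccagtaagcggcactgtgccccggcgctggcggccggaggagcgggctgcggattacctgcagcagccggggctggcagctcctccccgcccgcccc
The motifs searched were the TATA box TATAAA, the GATA motif AGATAA, the NKX2-5 motif TNNAGTG, the T-box element AGGTGT, and the MEF2 and CArG motifs. The Nppa window held 4 matches, to the TATA box, NKX2-5 at 2 places and the T-box element. The Myl7 window held 1, to the CArG motif, which 1.63% of all 32851 mouse windows of this length hold. The Bmp10 window held the GATA motif at 2 places and the NKX2-5 motif at 1, and none of these letters were found in the Ryr2 window. Matches are common in such windows: 13.6% hold the TATA box, 11.2% the GATA motif, 39.4% the NKX2-5 motif, 13.7% the T-box element and 3.19% the MEF2 motif. RefSeq windows were matched for 9 of the 10 genes.

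Libraries held 20603620 to 36824370 counts, and levels are given as CPM, that is counts scaled to a common library size after TMM factors were applied to the totals. A gene was taken as read in a library where it had more than 3 counts. The tissue label was checked on marker lists. Of 14 lung epithelium genes 12 rose in metastases and none fell (edgeR, adjusted p under 0.05), with a median log2 fold change of 7.22. Of 20 fast skeletal muscle genes 14 fell and none rose, with a median of -4.51. The summed level of the fast skeletal list was 18.2 to 4473 CPM in metastases, highest in 2-3, and 2.89 to 12513 CPM in primary tumours, highest in 5. In bulk tissue, fewer cells of a type and less RNA per cell cannot be told apart.

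**Figure D1:**
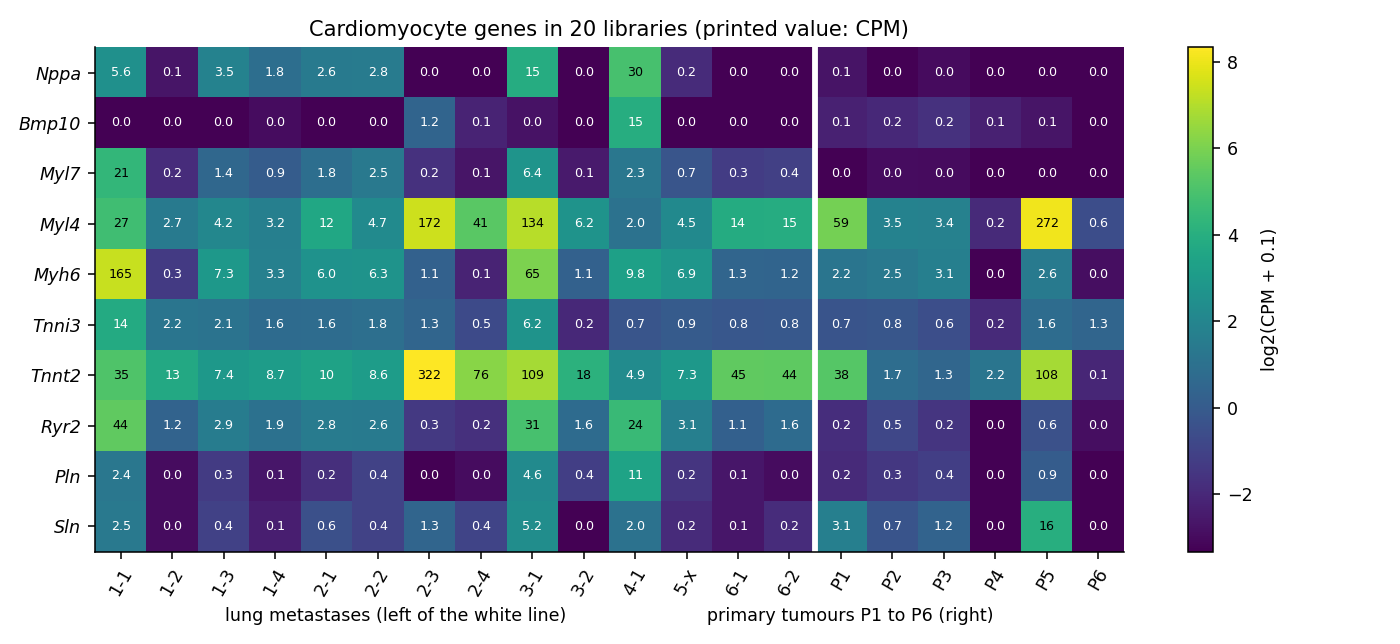
Heat map of the 10 genes (rows) in 14 lung metastases (left of the white line) and 6 primary tumours (right, P1 to P6); colour is log2(CPM + 0.1) and the printed value is CPM. Nppa is highest in metastases 4-1, 3-1 and 1-1 and Myl7 in 1-1, 3-1 and 2-2, and both are near 0 in each primary tumour, while Myl4 and Tnnt2 are high in metastases 2-3 and 3-1 and in primary tumour 5.

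Of the 10 members, 9 passed the filter on low counts, and 3 of them, Nppa, Myl7 and Ryr2, rose in lung metastases while none fell (threshold of 0.05 on the adjusted p of edgeR, fitted with the set as a block). Among all 18452 genes tested, 7.34% rose and 6.44% fell. The median log2 fold change of the 9 tested members was 1.34, against -0.00032 for all genes tested. The members were chosen with earlier results of these data known, so neither the count nor the median is independent support. Bmp10 did not pass the filter and was not tested, and Nppa and Myl7 passed it through the metastases alone. Ryr2, with 0 to 22 reads in the primary tumours, passed it mainly through the metastases. So the called members entered the test through the group where they are high. The metastases of a set entered this fit as separate libraries. With the metastases of each set summed, fewer members rose, and Nppa did not pass the filter. Metastasis 1-1 stood apart from the other metastases of its set for 7 members. Without metastasis 1-1 and set 4, an alternative chosen after seeing the data, Myl7 (log2 fold change 6.35) and Ryr2 (3.26) still passed in edgeR and Nppa did not (6.39, adjusted p = 0.0950).

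The first role is that of the secreted factors. Nppa (ENSMUSG00000041616.9, chromosome 4, 148000722 to 148002079, plus strand), which encodes atrial natriuretic peptide, had 1022 reads in metastasis 4-1, 297 in 3-1, 175 in 1-1, 101 in 1-3, 100 in 2-2, 80 in 2-1, 54 in 1-4, 6 in 5-x and 2 in 1-2, and none in 2-3, 2-4, 3-2, 6-1 and 6-2. The 6 primary tumours had 2, 1, 0, 0, 0 and 0 reads. Nppa was thus read in 8 of 14 metastases and in 0 of 6 primary tumours, and the groups overlapped because 5 metastases had no read. In CPM the metastases ran from 0 to 30.3 with a median of 0.966, and the primary tumours from 0 to 0.0534 with a median of 0. Over the groups, 1837 reads in metastases stood against 3 in primary tumours, a CPM ratio of 268 with an exact 95% counting interval of 91.7 to 1303. The ratio was 129 without metastasis 4-1. The fitted log2 fold change was 7.43 ± 2.11 (SE; edgeR adjusted p = 0.0322), a size that depends on the prior count since the primary tumours are near 0. The call was lost without set 2 (adjusted p = 0.0679), without set 4 (0.0750) and without metastasis 3-1 (0.0806) in the same edgeR fit. The antisense gene Gm13054, whose exons overlap those of Nppa, had at most 16 reads in any metastasis and at most 6 in any primary tumour.

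Bmp10 (ENSMUSG00000030046.6, chromosome 6, 87428994 to 87437677, plus strand) encodes a secreted bone morphogenetic protein made by the atria, mainly the right atrium in the adult mouse. Metastasis 4-1 held 517 of the 558 reads in metastases, or 92.7%. Metastasis 2-3 had 35 reads, 2-4 had 4, 1-4 and 3-1 had 1 each, and the other 9 had none. The primary tumours had 8, 5, 4, 2, 2 and 0 reads. The groups overlapped, and a primary tumour was higher than most metastases. The CPM ratio of the groups was 11.7 (7.55 to 19.0, exact 95% counting interval) with metastasis 4-1 and 0.928 (0.536 to 1.65) without it. Among the libraries rich in Nppa or Myl7, Bmp10 was thus high in 4-1 alone, at 15.3 CPM, with 0.0496 CPM in 3-1 and 0 CPM in 1-1.

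The light chains of myosin followed separate patterns. Myl7 (ENSMUSG00000020469.8, chromosome 11, 5896637 to 5898782, minus strand), the atrial regulatory light chain, had 654 reads in metastasis 1-1, 130 in 3-1, 91 in 2-2, 79 in 4-1, 53 in 2-1, 40 in 1-3, 29 in 1-4, 27 in 5-x, 12 in 6-2, 10 in 6-1, 6 in 1-2, 6 in 2-3, 2 in 2-4 and 2 in 3-2. The primary tumours had 1, 1, 0, 0, 0 and 0 reads. Myl7 was the only member whose groups did not overlap, at 0.0601 to 21.1 CPM in metastases and 0 to 0.0302 CPM in primary tumours, although the lowest metastases, at 2 reads, lie under the floor of 3. The CPM ratio over the groups was 250 (69.1 to 2068, exact 95% counting interval), and 115 (31.7 to 952) without metastasis 1-1. The fitted log2 fold change was 7.14 ± 1.61 (SE; edgeR adjusted p = 0.00945), and it passed the threshold in each of the 18 fits that left out a set or a metastasis.

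Myl4 (ENSMUSG00000061086.12, chromosome 11, 104550663 to 104595753, plus strand), the atrial and embryonic essential light chain, was read in all 14 metastases and in 5 of 6 primary tumours. It ran from 1.99 to 172 CPM in metastases with a median of 9.22, and from 0.160 to 272 CPM in primary tumours with a median of 3.44. The 5 highest libraries were metastases 2-3 (172 CPM), 3-1 (134 CPM) and 2-4 (41.3 CPM) and primary tumours 5 (272 CPM) and 1 (58.7 CPM). The groups overlapped over nearly the whole range, and the fitted log2 fold change was 0.40 ± 1.69 (SE; edgeR adjusted p = 0.906). Without the set as a block, its sign turned to -0.83. Metastasis 4-1, the highest library for Nppa, was the lowest metastasis for Myl4.

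Myh6 (ENSMUSG00000040752.15, chromosome 14, 54941921 to 54966927, minus strand) encodes the alpha heavy chain of cardiac myosin, used in atria and, in the adult mouse, also in ventricles. It ran from 0.120 to 165 CPM in metastases with a median of 4.68, and from 0 to 3.13 CPM in primary tumours with a median of 2.36. Metastasis 1-1 held 5134 of 7916 reads in metastases, or 64.9%, and 3-1 another 1320. Metastases 1-2, 2-3, 2-4, 3-2, 6-1 and 6-2, at 0.120 to 1.30 CPM, lay below primary tumours 1, 2, 3 and 5, so the groups overlapped. The means of the metastases were above the primary tumour in 6 of 6 sets, but the fitted log2 fold change of 2.77 ± 1.37 (SE) did not pass the threshold (edgeR adjusted p = 0.193). DESeq2 gave 2.93 with an adjusted p of 0.0260. Of all 50-base stretches in the exons of Myh6, 20.2% also occur in Myh7, so reads there could not be assigned by sequence alone.

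The troponin genes encode the calcium switch of the thin filament. Tnni3 (ENSMUSG00000035458.15, chromosome 7, 4518305 to 4524229, minus strand), the cardiac inhibitory subunit, ran from 0.157 to 13.8 CPM in metastases with a median of 1.46, and from 0.160 to 1.62 CPM in primary tumours with a median of 0.738. Metastases 1-1 (13.8 CPM), 3-1 (6.25 CPM), 1-2 (2.24 CPM), 1-3 (2.06 CPM) and 2-2 (1.82 CPM) were above each primary tumour, metastasis 2-1 was level with primary tumour 5 at 1.62 CPM, and the groups overlapped otherwise. The log2 fold change was 1.00 ± 0.782 (SE; edgeR adjusted p = 0.433). Exons of Tnni3 overlap those of Dnaaf3 on the same strand, and 1.69% of its 50-base stretches are shared with it. Dnaaf3 itself averaged 1.97 ± 1.32 CPM in metastases (SD, n = 14) and 1.88 ± 1.01 CPM in primary tumours (SD, n = 6). By library it was highest in 3-1 (4.91 CPM) and 1-1 (4.51 CPM), which were also highest for Tnni3. Primary tumour 6 had 39 reads of Tnni3 and 83 of Dnaaf3, with 1 of Myh6 and 0 of Myl7. The part of Dnaaf3 in the Tnni3 counts was not tested.

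Tnnt2 (ENSMUSG00000026414.13, chromosome 1, 135836354 to 135852260, plus strand), the cardiac tropomyosin-binding subunit, was read in all 20 libraries. It ran from 4.86 to 322 CPM in metastases with a median of 15.4, and from 0.135 to 108 CPM in primary tumours with a median of 1.94. Metastases 2-3 (322 CPM), 3-1 (109 CPM) and 2-4 (76.1 CPM) and primary tumour 5 (108 CPM) were highest. All 4 are among the 5 libraries with the highest summed level of 8 embryonic and regenerating muscle genes. The remaining library of those 5, primary tumour 4, had a sum of 651 CPM but only 2.19 CPM of Tnnt2. The groups overlapped, and the log2 fold change was 1.22 ± 1.52 (SE; edgeR adjusted p = 0.644).

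The last group handles calcium at the sarcoplasmic reticulum. Ryr2 (ENSMUSG00000021313.16, chromosome 13, 11553102 to 12106945, minus strand), the cardiac calcium release channel, had 1381 reads in metastasis 1-1, 810 in 4-1, 617 in 3-1 and 113 in 5-x, 94 in 2-2, 84 in each of 1-3 and 2-1, and 7 to 59 in the other 7. The primary tumours had 22, 15, 9, 7, 1 and 0 reads. In CPM the metastases ran from 0.210 to 44.5 with a median of 2.26, and the primary tumours from 0 to 0.647 with a median of 0.216, and only metastases 2-3 and 2-4 lay within the range of the primary tumours. The log2 fold change was 4.26 ± 1.31 (SE; edgeR adjusted p = 0.0416), and the CPM ratio of the groups was 27.8 (21.3 to 37.1, exact 95% counting interval), and 17.9 (13.6 to 23.9) without metastasis 1-1. The call was lost in 9 of 18 fits that left out a set or a metastasis, at adjusted p of 0.0587 to 0.116 in edgeR: without sets 1, 3, 4 or 6 and without metastases 2-1, 2-2, 3-1, 6-1 or 6-2.

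Pln (ENSMUSG00000038583.13, chromosome 10, 53337667 to 53345987, plus strand) encodes phospholamban, the inhibitor of the calcium pump in cardiac and slow muscle. It had 358 reads in metastasis 4-1, 93 in 3-1, 74 in 1-1 and 0 to 14 in the other 11, against 32, 13, 9, 6, 0 and 0 in the primary tumours. Metastases 4-1 (10.6 CPM), 3-1 (4.61 CPM) and 1-1 (2.38 CPM) stood above primary tumour 5 (0.941 CPM), and the groups overlapped otherwise. The log2 fold change was 1.34 ± 1.32 (SE; edgeR adjusted p = 0.546). Cep85l lies antisense with overlapping exons and had 13.4 to 101 CPM in metastases and 19.6 to 53.6 CPM in primary tumours.

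Sln (ENSMUSG00000042045.6, chromosome 9, 53850164 to 53854560, plus strand) encodes sarcolipin, a pump inhibitor of atria and of some skeletal muscles. It ran from 0 to 5.20 CPM in metastases with a median of 0.383, and from 0 to 15.9 CPM in primary tumours with a median of 0.974. The 5 highest libraries were metastases 3-1 (5.20 CPM), 1-1 (2.54 CPM) and 4-1 (1.99 CPM) and primary tumours 5 (15.9 CPM) and 1 (3.13 CPM). The groups overlapped, and the log2 fold change was -0.33 ± 1.32 (SE; edgeR adjusted p = 0.902).

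**Figure D2:**
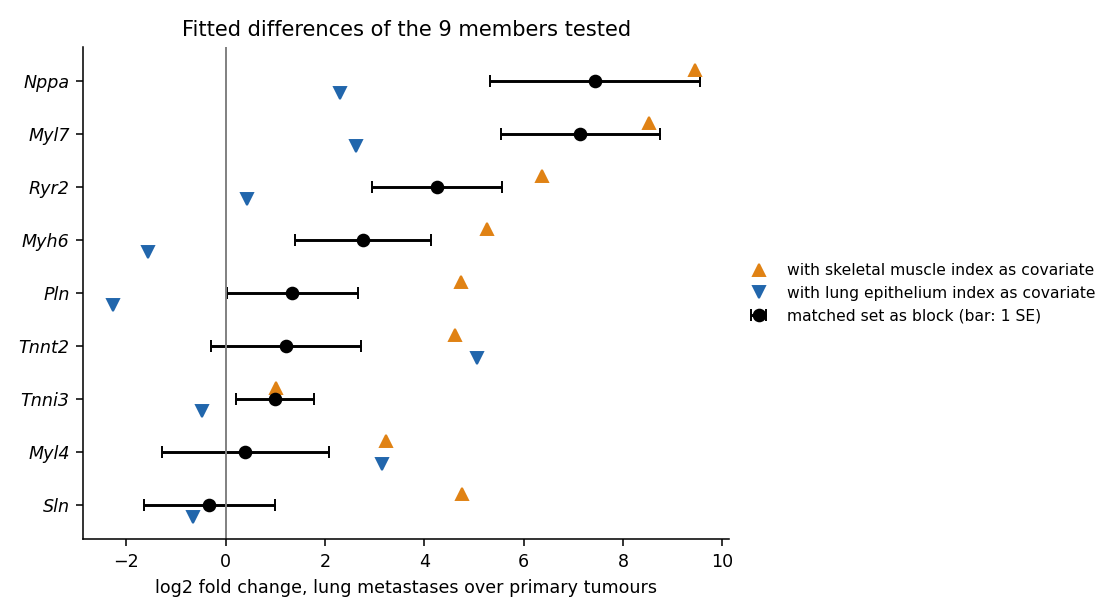
Fitted log2 fold change (x axis, lung metastases over primary tumours) of the 9 members tested (rows): black points with bars of 1 SE are from the fit with the matched set as a block, and triangles add a skeletal muscle (orange) or lung epithelium (blue) index as a covariate. Nppa and Myl7 lie above 7 without a covariate and at 2.30 and 2.63 with the lung index.

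Of the regulatory light chains, metastases held mainly the atrial Myl7 and primary tumours mainly Myl2, which both ventricles and slow skeletal muscle use. Myl7 made up 1141 of 1250 reads of Myl7 and Myl2 in metastases, or 91.3% (89.6 to 92.8%, exact Clopper-Pearson 95% interval), against 2 of 1392 reads, or 0.144% (0.0174 to 0.518%), in primary tumours. Without metastasis 1-1, which held 57.3% of the Myl7 reads of metastases, the share in metastases was 82.7%. The share was 98.9% in 1-1, 96.8% in 2-2, 93.0% in 1-3, 91.9% in 4-1, 90.6% in 1-4, 90.3% in 3-1, 84.4% in 5-x, 83.3% in 6-1, 69.7% in 2-1 and 66.7% in 6-2. In metastases 1-2, 2-3 and 2-4, with 14, 19 and 16 reads of both genes, it was 42.9%, 31.6% and 12.5%, and 3-2 had only 3 reads. These intervals cover counting error only, since PCR copies are not independent molecules. The essential light chains gave no such contrast between the groups as a whole. Myl4 made up 97.4% of Myl4 and Myl3 reads in metastases and 96.1% in primary tumours. By library it was 91.2% or more in each metastasis. It was 56.3% and 42.6% in primary tumours 2 and 3, and 93.1% or more in the other primary tumours.

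Myl2, the ventricular and slow skeletal light chain, fell in metastases, at 0.265 ± 0.232 CPM (SD, n = 14) against 6.47 ± 5.53 CPM in primary tumours (SD, n = 6), with a log2 fold change of -4.28 ± 0.920 (SE; edgeR adjusted p = 0.00736). In the 3 metastases highest for Nppa, Myh6, Ryr2 and Pln, Myl2 had 7 reads in 1-1, 14 in 3-1 and 7 in 4-1. The 506, 208, 386 and 289 reads of Myl2 in primary tumours 1, 2, 3 and 5 came without Myl7, which had 0, 1, 1 and 0 reads there. Primary tumours 4 and 6 had 1 and 0 reads of Myl2. In primary tumours 1, 2, 3 and 5 the fast skeletal list summed to 5605 to 12513 CPM. The slow skeletal list summed to 123 to 776 CPM there. The part of skeletal muscle in the Myl2 reads was not tested. The essential ventricular light chain Myl3 did not follow Myl2 in each library: metastasis 3-1 had 261 reads and 1-1 had 40, against 0 to 5 in the other 12 metastases and 0 to 167 in the primary tumours (log2 fold change -3.38 ± 1.29 SE, edgeR adjusted p = 0.0991).

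Among heavy chains, Myh6 made up 90.4% of Myh6 and Myh7 reads in metastasis 1-1, 91.3% in 1-3, 91.0% in 1-4, 84.1% in 3-1 and 80.8% in 4-1. It was 31.4% in 2-1, 30.2% in 2-2, 35.3% in 6-1, 28.0% in 6-2 and 12.6% in 5-x, where Myh7 had 1735 reads. In primary tumours 1, 2, 3 and 5 it was 5.06% to 11.8%. So metastases 2-1, 2-2, 5-x, 6-1 and 6-2, whose regulatory light chain reads were mostly Myl7, had more reads of Myh7 than of Myh6. Myh7 is the beta heavy chain, which ventricles of the embryo and slow skeletal muscle use. The summed level of the slow skeletal list was 26.2, 5.03, 6.98, 35.5 and 36.3 CPM in these libraries, in that order. Myh7 as a whole did not pass the test (log2 fold change -0.88, edgeR adjusted p = 0.614), and nor did Nppb, the ventricular natriuretic peptide gene (2.03, adjusted p = 0.0661).

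Irx4, a transcription factor of ventricular cardiomyocytes, had 0 or 1 read in every library, and Nkx2-5, a transcription factor of cardiomyocytes in all chambers, had 0 to 2. Both were looked at after their values were seen. A gene of 0 to 2 reads is not detectable at this depth, and its absence from the cells does not follow.

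**Figure D3:**
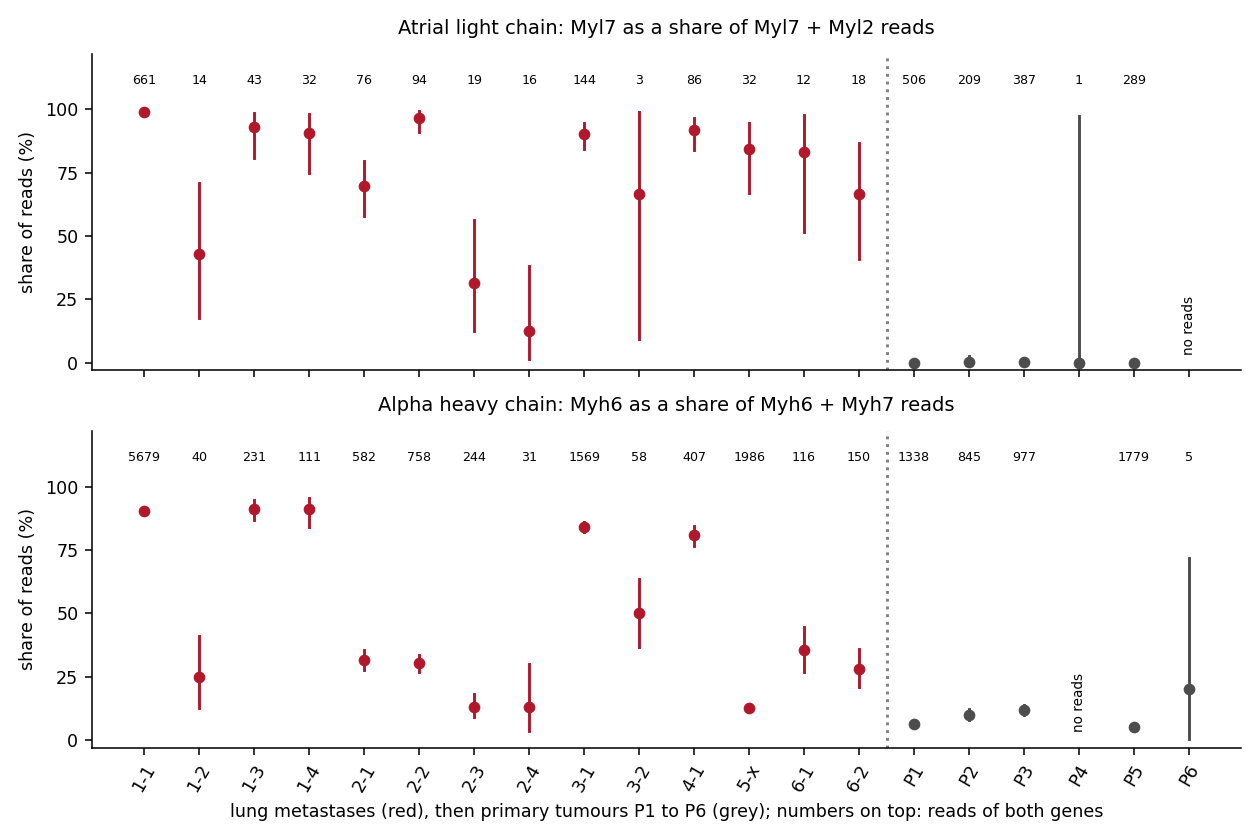
Myl7 as a percent of Myl7 and Myl2 reads (top) and Myh6 as a percent of Myh6 and Myh7 reads (bottom) in each library, metastases in red on the left and primary tumours in grey on the right; bars are exact 95% intervals and the numbers on top are the reads of both genes. Myl7 shares are 66.7% or more in 11 metastases and at or under 0.478% in the 5 primary tumours with a read. Among these, metastasis 3-2 had only 3 reads of both genes and primary tumour 4 only 1.

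Metastases 1-1, 3-1 and 4-1, the 3 highest for each of Nppa, Myh6, Ryr2 and Pln, differed in the proportions of these genes. Per kilobase of exon, Nppa stood at 0.183 of the level of Myl7 in metastasis 1-1 (0.154 to 0.216, exact 95% counting interval), 1.56 in 3-1 (1.26 to 1.93) and 8.82 in 4-1 (7.01 to 11.2). The same ratio was 1.72 in 1-3, 1.27 in 1-4, 1.03 in 2-1, 0.750 in 2-2 and 0.152 in 5-x, and 0.227 in 1-2 on 2 and 6 reads, while 6-1 and 6-2 had 10 and 12 reads of Myl7 with none of Nppa. Bmp10 to Myl7 was 0.860 per kilobase in 4-1, 0.767 in 2-3 on 35 and 6 reads, and 0 in 1-1, where 0 reads stood beside 654 of Myl7 and the upper bound was 0.000743.

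The calcium genes divided these libraries in the same order by Pln to Myl7 and Ryr2 to Myh6, but not every computed ratio did. Myh6 to Myl7 was 0.689 per kilobase in 1-1, 0.891 in 3-1 and 0.365 in 4-1. Myl4 to Myl7 and Tnnt2 to Myl7 were highest in 3-1 among these libraries. Pln to Myl7 was 0.0242 per kilobase in 1-1 (0.0188 to 0.0308), 0.153 in 3-1 (0.116 to 0.201) and 0.969 in 4-1 (0.758 to 1.25). It was 0.962 in 3-2, on 9 and 2 reads (0.199 to 9.15), and 0 to 0.0713 in the other metastases for which it was computed. Ryr2 to Myh6 was 0.0628 in 1-1 (0.0592 to 0.0667), 0.109 in 3-1 (0.0991 to 0.120) and 0.575 in 4-1 (0.505 to 0.656), and it was 0.0930 to 0.136 in 1-3, 1-4, 2-1, 2-2 and 5-x. Metastases with fewer reads of Myh6 had 0.0584 in 2-3, 0.194 in 6-1, 0.295 in 6-2, 0.330 in 3-2, 0.409 in 2-4 and 0.934 in 1-2 (0.459 to 2.10), on 4 to 42 reads of Myh6, so metastasis 4-1 was not the highest. The intervals of 1-1 and 4-1 did not overlap for Nppa, Bmp10 or Pln to Myl7, or for Ryr2 to Myh6. The intervals compare libraries, with 1 metastasis each, and hold no spread between samples.

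**Figure D4:**
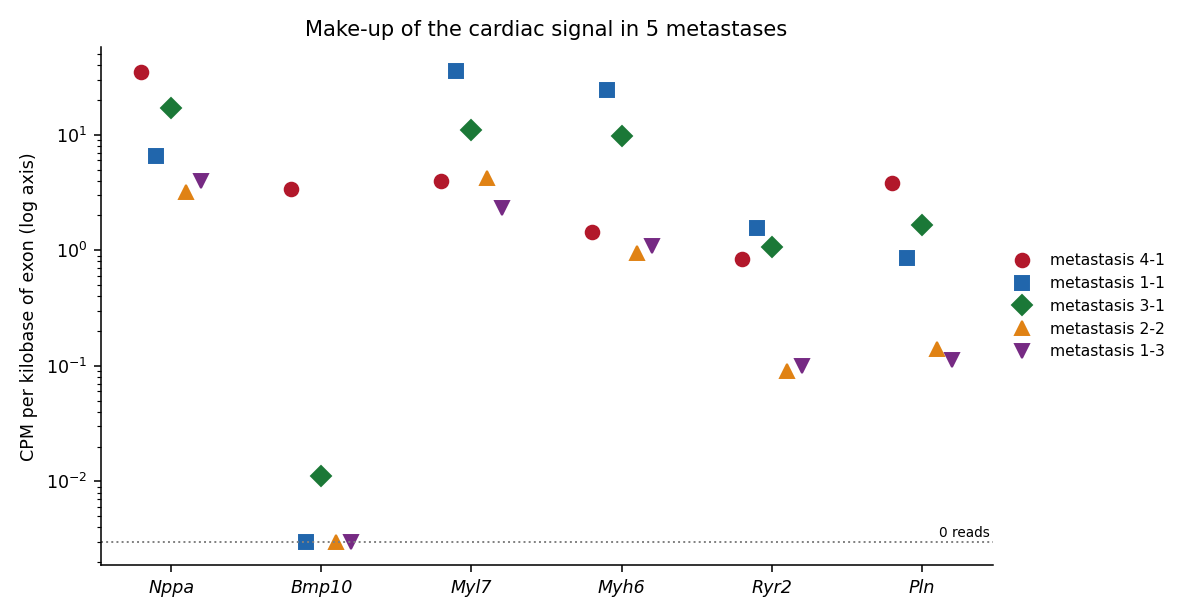
Level of 6 members in CPM per kilobase of exon (log axis) in the 5 metastases named in the legend; points on the dotted line had 0 reads. Metastasis 4-1 is highest for Nppa, Bmp10 and Pln, and 1-1 is highest for Myl7, Myh6 and Ryr2.

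Markers of other tissues also varied between the libraries. The summed level of 14 lung epithelium genes ran from 105 to 14646 CPM in metastases with a median of 860, highest in 1-1, and from 7.54 to 108 CPM in primary tumours with a median of 87.3. Metastasis 5-x reached 11804 CPM on this list with Myl7 at 0.747 CPM, while 3-1 had 989 CPM with Myl7 at 6.44 CPM, and 2-3 and 2-4, the lowest at 165 and 105 CPM, had 0.213 and 0.0601 CPM of Myl7. Of the lung epithelium list only Nkx2-1 was at 3 or fewer reads in all primary tumours. With an index of lung epithelium added as a covariate none of the members passed (Myl7 2.63, edgeR adjusted p = 0.247; Nppa 2.30, adjusted p = 0.624). With the fast skeletal muscle index as a covariate 6 members rose: Nppa, Myl7, Ryr2, Tnnt2 (4.61), Sln (4.76) and Myl4 (3.23). These indices differ between the groups, so their part in the rises of Nppa, Myl7 and Ryr2 cannot be told apart from that of the group.

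The embryonic and regenerating muscle list of 8 genes, with the myogenic factor Myog among them, summed to 77.8 to 2059 CPM in metastases and 5.11 to 1751 CPM in primary tumours. Metastases 2-3 (2059 CPM), 3-1 (1451 CPM) and 2-4 (608 CPM) and primary tumours 5 (1751 CPM), 4 (651 CPM) and 1 (534 CPM) were highest. Myog reached 352 CPM in metastasis 2-3, 78.6 CPM in 3-1 and 27.7 CPM in 2-4, and 168 CPM in primary tumour 5 and 30.0 CPM in primary tumour 1, the same 5 libraries that were highest for Myl4. Metastases 1-1 and 4-1 stood at 0.451 and 0.148 CPM of Myog. Primary tumour 4, high on the list sum, was the lowest library for Myl4, at 0.160 CPM. The part of skeletal muscle in the levels of Myl4, Tnnt2 and Sln was not tested beyond the covariate above.

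**Figure D5:**
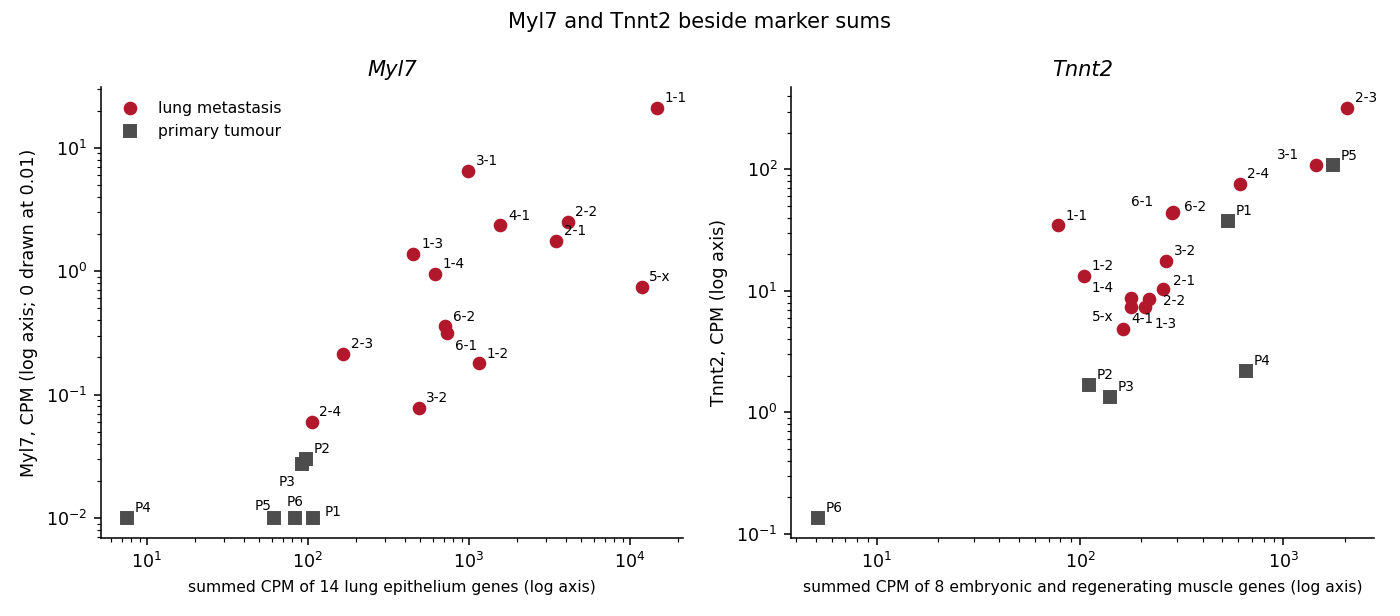
Left, Myl7 in CPM against the summed CPM of 14 lung epithelium genes; right, Tnnt2 in CPM against the summed CPM of 8 embryonic and regenerating muscle genes, on log axes, with lung metastases as red circles and primary tumours (P) as grey squares. Metastasis 1-1 is highest in the left panel on both axes and metastasis 2-3 in the right panel.

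Metastases of different primary tumours were compared among the 12 metastases of sets 1, 2, 3 and 6. No member differed between these sets (edgeR, adjusted p 0.176 for Pln to 0.403 for Sln), none had an unadjusted p under 0.05, and DESeq2 called none of the 4 for which it gave an adjusted p. Of all 19919 genes tested, 64 differed in edgeR, or 0.321%. That count was not stable: DESeq2 gave 4786, and leaving out a single metastasis gave from 0 (without 1-2, 1-3, 1-4, 2-1, 2-2, 6-1 or 6-2) to 5602 (without 3-1), with 271 without 1-1, 230 without 2-3 and 1186 without 2-4. Within sets the members were far apart: Myl7 ran from 0.179 to 21.1 CPM in the 4 metastases of set 1, from 0.0601 to 2.51 CPM in set 2 and from 0.0784 to 6.44 CPM in set 3. Only set 6 was even, at 0.318 and 0.356 CPM.

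Beyond the members, 1 of 10 tested genes of an atrial list rose and 1 fell. Tbx5, a T-box factor of the atria that lung mesenchyme also makes, rose by 5.83 (log2, edgeR adjusted p = 0.00689). It had 0 to 3 reads in the primary tumours and passed the filter through the metastases alone. The size of its rise thus depends on the prior count. Nr2f2, a factor of atrial identity that many other cells use, fell by 0.61 on the log2 scale (edgeR adjusted p = 0.0158). Stard10 had 1.57 and did not pass (adjusted p = 0.0836). Mybphl, an atrial myosin-binding protein gene, was chosen from this list after its values were seen. It had 62 reads in 1-1, 15 in 3-1, 9 in 2-2, 8 in 2-3 and 2 in 4-1. The other metastases had 0 to 6 and each primary tumour 0. In mean CPM, Sbk2, Kcna5, Nr2f2, Dkk3 and Pam of the atrial list were lower in metastases than in primary tumours, and its remaining genes were higher. Of 6 tested pulmonary vein and pacemaker genes none passed, with Tbx18 at -0.82, Isl1 at -2.24 and Shox2 at -2.34. Of 5 tested ventricular genes Myl2 alone fell.

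Of 19 pan-cardiac genes tested, Mybpc3, the cardiac myosin-binding protein C, rose by 3.78 (log2; edgeR adjusted p = 0.0401) and Trdn, the junctional protein triadin of cardiac and skeletal muscle, fell by 4.04 (adjusted p = 0.0244). Mybpc3 had 449 reads in 1-1 and 94 in 3-1, with 3 to 34 in the other 12 metastases and 0 to 11 in the primary tumours. Ankrd1 had -1.74 and did not pass (adjusted p = 0.0606). Of 17 calcium handling genes, Fkbp1b, which binds the Ryr2 channel, rose (1.53, edgeR adjusted p = 0.0147) and 4 fell. Among those, Casq1 (-5.35) is on the fast skeletal muscle list as well, and Trdn is on the pan-cardiac list. The fast skeletal list fell in 14 of 20, with the smallest p for Tmod4 (-4.07), Pvalb (-7.39) and Mybpc2 (-5.25).

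None of the slow skeletal (5 genes) and smooth muscle (8 genes) lists passed. Their smallest p belonged to Mybpc1 (-4.25), Tnnt1 (-1.20) and Tnni1 (-1.27), and to Tagln (-2.30), Actg2 (1.76) and Cnn1 (-1.33). Of the embryonic muscle list 1 of 8 passed, Musk, at 1.62 (edgeR adjusted p = 0.0352), with Myf5 at 2.80 and Myog at -2.84 not passing. Markers of the lung stroma and of the mesothelium, the lining of the pleura and pericardium, rose in 5 of 7 and 5 of 5 genes tested. Tcf21 (6.86), Tbx4 (3.86) and Inmt (5.29) led the first and Upk3b (5.61), Lrrn4 (4.38) and Wt1 (4.01) the second. In brown fat genes 1 of 5 fell, Ucp1 (-3.42), with Dio2 (-1.63) and Cox8b (-2.35) not passing. Nkx2-1 (8.96), Scgb1a1 (8.98) and Ager (6.09) led the lung epithelium list. The median log2 fold changes of the tested genes were 0.40 for the atrial list, -4.7e-05 for pulmonary vein and pacemaker, -0.88 for ventricular, 0.43 for pan-cardiac and -0.69 for calcium handling genes. They were -1.20 for slow skeletal, -1.25 for embryonic muscle, -0.30 for smooth muscle, 4.19 for lung endothelium and stroma, 4.01 for mesothelium and -1.63 for brown fat.

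The genes whose level over the 14 metastases ran most like the mean log2 CPM of Nppa, Myl7, Myh6 and Tnni3, among those that passed the filter, were Timp4 (Spearman rho 0.925), Frem1 (0.916), Ccdc30 (0.908), Pou2f2, Galnt16, Cytl1 and Igkv14-126 (0.895 each), Art4 (0.890), Cdh26 (0.886) and Maml2 (0.873). These metastases share libraries, depth and lung content with the members. Of the 10, Ccdc30 (2.39), Igkv14-126 (3.49) and Art4 (4.48) rose in metastases over primary tumours (edgeR, adjusted p 0.00223, 0.0273 and 0.00188), and the other 7 did not pass.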

How the data were processed

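The members and gene lists were chosen with earlier results of these data known. The deposited data are raw counts, which the authors gave as whole numbers for 51826 genes in 20 libraries, without normalization. Per the labels' protocols, a Direct-zol kit yielded total RNA, and stranded libraries followed Ribo-Zero Gold depletion. Per the submitters' processing notes, Trimmomatic 0.36, STAR (version string 5.5.4b, doubtful as a STAR release), HTSeq and mm10 were used; for the annotation release and strand setting, the sources used here state nothing. Overlapping and antisense genes may therefore share reads.

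Symbols, coordinates (mm10) and exon lengths came from GENCODE M21: 51633 identifiers had a symbol, 47648 in the same version, and those without one held 0.017% of counts. filterByExpr (minimum count 10) removed weakly read genes. Counts were tested in R 4.3.3 with edgeR 4.0.16, robust quasi-likelihood, TMM, matched set as a block (13 residual degrees of freedom) and Benjamini-Hochberg adjustment over all genes tested, with a threshold of 0.05. The pairing comes from the titles and the design text. Sets were compared by an edgeR F test over 12 metastases (8 residual degrees of freedom). An index is the mean log2 CPM of a list with a prior count of 2. The fits were tested on counts simulated at a fixed dispersion, without libraries that stand apart. That test does not cover outlying libraries such as metastasis 1-1. No libraries of a set agreed within sampling noise: the closest pair, 2-1 and 2-2, gave 9.70 as chi-square over its degrees of freedom.

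Genes were named by rule: the members; Myl2, Myl3, Myh7 and Nppb; the 3 tested members of smallest p of each other list; and the 10 most like the mean of Nppa, Myl7, Myh6 and Tnni3. Alternatives were DESeq2 1.42.0, RLE factors, no filter, no block, summed or single metastases, covariates and leaving out sets or metastases. Strit1 was not used here.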

Additional observations from a re-analysis of the deposited data

Results flagged for a closer look

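Of 30 groups of 4 or 6 libraries checked, 12 held a library far from the others by Dixon's criterion. The criterion flags about 1 in 20 groups of independent, normally distributed values. That rate is no measure for this count. The values are unlogged CPM, and the same libraries recur, with metastasis 1-1 flagged for 7 members. All values are CPM. In the 4 metastases of set 1, metastasis 1-1 stood apart for Myl7 (21.1, others 0.179 to 1.38), Myl4 (26.9, others 2.68 to 4.16), Pln (2.38, others 0.0298 to 0.310), Sln (2.54, others 0.0298 to 0.378), Ryr2 (44.5, others 1.19 to 2.89), Myh6 (165, others 0.298 to 7.26) and Tnni3 (13.8, others 1.60 to 2.24). It was not apart for Nppa. Bmp10 in set 1 was apart in metastasis 1-4 at 0.0327, a single read beside 0 in the others. In set 2, metastasis 2-3 stood apart for Bmp10 at 1.24, where the others had 0 to 0.120. Among the 6 primary tumours, primary tumour 5 stood apart for Myl4 (272, others 0.160 to 58.7), Sln (15.9, others 0 to 3.13) and Tnnt2 (108, others 0.135 to 37.7). Metastasis 1-1 also had the highest lung epithelium sum, and primary tumour 5 the highest fast skeletal muscle sum. The part of either in these levels was not tested.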

How the results depend on the processing

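Over the alternatives, Myl7 passed in 26 of 27, Nppa in 18 of 24 and Ryr2 in 13 of 26, and no member fell in any; DESeq2 gave no adjusted p for Ryr2. Without the replicate block, 3 members rose (1221 genes rose and 1263 fell); the paired and unpaired fits differed in sign for Myl4 (-0.83). The count of members that rose was 1 with no filter, with summed metastases and using metastasis 1 only from each set, 6 given the muscle index and 0 with the lung index. It ran from 1 to 3 when a set or metastasis was left out, at 1 without set 1, set 4 or metastasis 3-1. It was 2 without metastasis 1-1 and set 4, chosen after seeing the data. Genes that rose and fell numbered 2741 and 1980 by DESeq2, 297 and 63 summed, 307 and 108 using metastasis 1 only, 2849 and 2160 with the muscle index, and 898 and 603 with the lung index. Leaving out a set or metastasis gave 567 to 1903 that rose and 407 to 1695 that fell. Reversed signs were Tnni3 (-0.47), Pln (-2.27) and Myh6 (-1.56) with the lung index, Sln summed (0.11), with metastasis 1 alone (0.65) and with the muscle index (4.76), and Myl4 without metastasis 1-1 and set 4 (-0.99). Leaving out a set or metastasis gave Sln -1.27 to 0.69 and Myl4 -0.44 to 3.50. Genes that differed between sets numbered 164 with no filter, 4786 by DESeq2 and 0 to 5602 without a metastasis, highest without 3-1, and 0 members in each (DESeq2 gave 4 members an adjusted p). The Myl7 share was 97.2% per kilobase and at lowest 82.7%, without 1-1. The causes were not tested. Nppa could not be fitted when summed, with metastasis 1 alone or without set 1, since it did not pass the filter there.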
